A study of Mus musculus with 125 samples.

Results

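Accessible chromatin was compared between endothelial cells of barrier-forming and other vascular beds, and 2230 regions were open in peripheral endothelium and had no peak in brain or retina endothelium shortly after birth. They were selected on the peak calls themselves: peaks of all 14 endothelial ATAC-seq libraries labelled P6 were merged into 196834 regions, and a region was kept when both libraries of at least 3 of heart, kidney, liver and lung held a peak and none of the 6 brain and retina libraries did. Of the 36178 regions open in at least 3 peripheral organs, these 2230 were 6.16%, and the other 33948 also held a peak in brain or retina endothelium. ATAC-seq marks open chromatin by the insertion of a transposase into accessible DNA. The libraries came from nuclei of mouse tissue labelled as endothelial or as input, the latter being nuclei of the whole tissue. Endothelial libraries covered brain, heart and trunk at E12 (3, 4 and 4 libraries), brain and retina at P6 (3 each), the 4 peripheral organs at P6 (2 each), and all 6 organs in adults (2 each).

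In all groups tamoxifen had been given at 0.015 mg per kg before collection, to pregnant dams at E10.5, to pups at P1 and P3, or to adults 7 days before isolation, and tissue without GFP in its vessels was not processed. The driver of that GFP, the strain and the sex are not given in the sources used here. The protocol dates the collections to E12.5 and P7, and the design gives the adults as 2 months old. Nothing in the labels says that libraries came from separate animals, so p-values measure the spread between these libraries, which may be technical. The tests below count each library of an organ as a unit, so their p-values do not measure the spread between organs.

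Endothelial cells line all vessels but differ between organs. In brain and retina they form the blood-brain and blood-retina barriers, with tight junctions, little vesicular transport and no fenestrae, a state that depends on Wnt/β-catenin signals from neural tissue. Liver sinusoids and kidney glomeruli have fenestrated endothelium, heart endothelium takes up fatty acids for the muscle, and lung capillaries exchange gas. Distal open regions often act as enhancers, and their use by a cell type is usually more selective than that of promoters.

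Few of the 2230 regions lay at promoters, and the sequences below show some of those that did. Within 500 bp of an annotated RefSeq start (GRCm38.p6) lay 24 of them. The 250 bases before a start overlapped a region for 20 promoters, and the 4 shown are the endothelial genes Selp and Egfl7 and 2 of the 8 regions at a start with the highest peaks in the P6 lists, at Tnf and Gpr39. The other 6 of these 8 lay at Akr1c13, Gp9, Rnase12, Olfr1510, Olfr1511 and Tas2r126. Each is written 5′ to 3′ on the gene's strand, and capitals mark the short motifs searched on both strands. Selp, P-selectin, captures leukocytes on activated endothelium, and its promoter at chr1:164115014-164115263 (plus strand) lay wholly inside a region open in 3 organs.
Selp: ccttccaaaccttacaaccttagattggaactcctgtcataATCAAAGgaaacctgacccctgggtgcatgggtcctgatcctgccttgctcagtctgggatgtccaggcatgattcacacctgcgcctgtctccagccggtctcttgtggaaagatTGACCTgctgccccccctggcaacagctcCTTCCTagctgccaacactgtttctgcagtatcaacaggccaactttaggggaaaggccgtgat
Egfl7 encodes a matrix protein secreted by endothelial cells, and the window before 1 of its starts, at chr2:26580833-26581082 (plus strand), had 249 of 250 bases inside a region open in 4 organs.
Egfl7: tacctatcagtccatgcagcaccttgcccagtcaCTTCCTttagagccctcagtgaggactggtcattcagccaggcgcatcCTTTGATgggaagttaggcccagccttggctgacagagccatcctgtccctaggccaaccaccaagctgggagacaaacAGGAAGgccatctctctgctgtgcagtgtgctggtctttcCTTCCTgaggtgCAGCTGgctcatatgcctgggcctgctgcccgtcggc
Tnf encodes the inflammatory cytokine, and its promoter was at chr17:35202008-35202257 (minus strand).
Tnf: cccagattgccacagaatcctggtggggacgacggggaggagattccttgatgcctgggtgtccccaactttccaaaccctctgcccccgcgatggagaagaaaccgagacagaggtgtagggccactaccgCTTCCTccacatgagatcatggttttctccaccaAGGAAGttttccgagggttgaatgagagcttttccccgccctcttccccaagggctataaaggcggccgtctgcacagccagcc
Gpr39, a zinc-sensing receptor gene, had its promoter at chr1:125676746-125676995 (plus strand).
Gpr39: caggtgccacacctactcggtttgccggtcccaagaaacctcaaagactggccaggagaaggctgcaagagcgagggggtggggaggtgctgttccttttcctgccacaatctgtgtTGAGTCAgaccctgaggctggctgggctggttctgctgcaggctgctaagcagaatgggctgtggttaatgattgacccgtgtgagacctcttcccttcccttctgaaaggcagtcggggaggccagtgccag

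The ETS motif, searched as CCGGAA or AGGAAG, stood in 13 of the 20 promoters (65.0%), against 39.4% of all 21262 promoters of protein-coding genes read the same way. It is the run in capitals written CTTCCT or AGGAAG in the Selp, Egfl7 and Tnf sequences, and the Gpr39 sequence has none. The GATA motif AGATAA stood in 5 of 20 promoters (25.0%, against 8.81% of all), the TCF/LEF motif ATCAAAG in 3 (15.0% against 2.82%), and the AP-1 motif TGAGTCA, which is TGACTCA on the other strand, in 3 (15.0% against 4.06%). The SOX motifs ACAATG or ACAAAG were in 1 (5.00% against 22.8%), and the KLF motif GGGTGTGG was in none (3.32% of all). These are matches of letters in 20 windows, given as a description with no test.

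The regions were mostly distal. Their median distance to the nearest start of a protein-coding gene was 33099 bp, close to the 30879 bp of all merged regions, and 1.08% lay within 500 bp of an annotated start, against 6.31% of all regions and 27.0% of those also open in barrier endothelium. For 4392 of 21883 genes, including Plvap, Fabp4, Pmp2, Vcam1 and Gata6 below, the reference used here gives no start, and the nearer gene end took its place. The reference has no exons, so exonic and intronic positions were not told apart; 1195 of the 2230 (53.6%) overlapped the span of a protein-coding gene. The median region was 621 bp wide, and 591 were open in both libraries of all 4 organs. Of the 1639 open in 3 organs, kidney was the organ without a peak in both libraries for 823, liver for 317, lung for 299 and heart for 200. The kidney lists held 43882 and 61017 peaks, and the other 6 peripheral lists 47685 to 76326.

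The choice of regions fixes their presence at P6, so the P6 shares only describe it. A peak was held by 92.5% and 92.6% of the regions in the heart libraries, 92.4% and 85.9% in liver, 89.5% and 87.8% in lung, and 79.9% and 63.5% in kidney. Within each of these 8 lists, the median fold enrichment of the authors' peak calls at the regions ranked at the 37.6th to the 63.8th percentile, so they were of middling height. Of the 6 brain and retina lists, 5 held 79903 to 92863 peaks and brain replicate 1 held 27160, against 43882 to 76326 in the peripheral lists. Brain and retina libraries had 14.0 to 20.2 M tags and the peripheral ones 19.3 to 34.4 M. With the same number of top peaks taken from every list, the rule chose 1864 regions; the part of depth in the missing peaks was not tested. Peaks within 5 kb of a start were present for 19 to 20 of 20 general endothelial genes in each P6 brain library and for 20 of 20 in each retina and peripheral library. Neural and glial markers had such a peak for 7 to 10 of 11 genes in P6 brain and 9 to 11 in P6 retina endothelial libraries, against 2 to 5 in peripheral ones. Photoreceptor markers had one for 6 of 6 genes in each retina library and for 0 to 2 in peripheral ones. On the peripheral side, cardiomyocyte markers had one for 8 of 8 genes in both P6 heart endothelial libraries, against 1 to 3 in kidney, liver and lung, 2 to 4 in brain and 5 in each retina library. Mural markers had one for 4 to 9 of 10 genes in peripheral, 2 to 9 in brain and 9 to 10 in retina libraries, and fibroblast markers for 4 to 8 of 9, 3 to 8 and 5 to 7. The part of such other nuclei in the presence or absence of peaks was not tested.

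**Figure D1:**
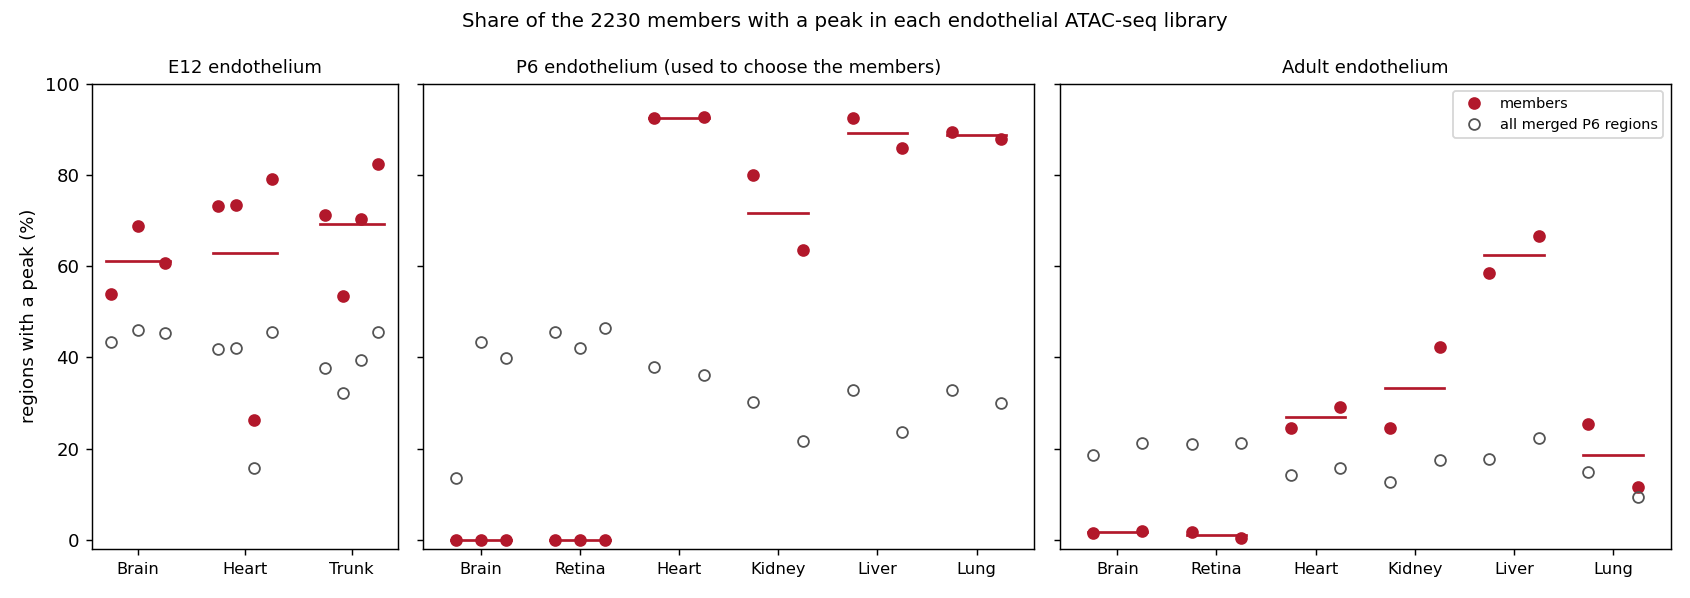
Share of regions with a peak in each endothelial library, in percent, by age and organ; filled points are the 2230 regions, open points all 196834 merged P6 regions, each point 1 library and each bar the mean over libraries of the filled points. The filled points are above the open ones in all 3 E12 brain libraries, where 53.9% to 68.9% of the regions held a peak, and at or below 1.97% in adult brain and retina.

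At E12, most of the regions were open in brain endothelium. A peak was held by 53.9%, 68.9% and 60.7% of them in the 3 brain libraries, a mean of 61.2% ± 7.52 (SD, n = 3), against 43.3% to 45.9% of all merged regions. The 33948 regions open in at least 3 peripheral organs and also in barrier endothelium at P6 gave a mean of 96.1%. The 2230 were thus above all merged regions and below the 33948. The 33948 are not a matched set: their mean share in the P6 peripheral libraries was 95.4%, against 85.5% for the 2230. Their median width was 897 bp, against 621 bp, and 27.0% lay within 500 bp of a start, against 1.08%. In trunk the 4 libraries gave 71.1%, 53.5%, 70.3% and 82.3%, a mean of 69.3% ± 11.9 (SD, n = 4), so the brain and trunk libraries overlapped; the 33948 gave 95.2% in trunk. Heart gave 73.1%, 73.3%, 26.2% and 79.0%. The low heart library, replicate 3, had 10.1 M tags and 39096 peaks; without it the mean was 75.1% ± 3.35 (SD, n = 3). Markers of other cells also had peaks within 5 kb of a start in E12 brain endothelial libraries: 8 of 9 fibroblast, 8 to 9 of 10 mural and 6 of 8 cardiomyocyte genes, against 3 to 8, 2 to 9 and 2 to 4 in P6 brain and 4 to 5, 4 to 5 and 0 in adult brain. In E12 trunk the numbers were 7 to 9, 8 to 10 and 2 to 6. Their part in the E12 shares was not tested. The E12 brain lists held 101322 to 111142 peaks from 31.8 to 42.3 M tags. The P6 brain lists held 27160 to 87133 peaks from 19.1 to 20.2 M tags. The part of depth in the difference between E12 and P6 brain was not tested.

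All 3 E12 brain libraries held a peak at 1087 of the 2230 regions (48.7%, 95% Wilson interval 46.7% to 50.8%), against 37.6% of all merged regions and 94.3% of the 33948 also open in barrier endothelium. At least 1 did at 1617 (72.5%, against 52.0% and 97.7%). For the 4276 regions open in 2 peripheral organs and in no barrier library at P6, these shares were 31.0% for all 3 and 54.2% for at least 1. All 4 trunk libraries held one at 1122 (50.3%, against 28.9% of all and 91.1% of the 33948). Both conditions were met at 884 regions, or 39.6%, against 27.3% of all and 89.9% of the 33948. The pattern that P6 shows, with all 4 trunk libraries open and no brain library, was present at 50 regions (2.24%, against 0.234% of all and 0.0913% of the 33948). The 4276 regions open in both libraries of 2 peripheral organs and in no barrier library gave 2.29%, about the same share. For the set of 2230, the count was 102 without brain replicate 2 and 117 without trunk replicate 2. In sets chosen anew it was 11 with peaks of −log10 q of at least 5 and 88 with equal numbers of top peaks. The opposite, all 3 brain and no trunk library, was found at 4 regions (0.179%, against 1.30% of all and 0.103% of the 33948). Another 308 regions (13.8%, against 43.7% of all and 1.47% of the 33948) were closed in all 7 brain and trunk libraries, and 140 (6.28%, against 35.8% and 0.430%) in all 11 E12 libraries. Intervals cover counting error only.

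The per-region test of 8 heart and trunk libraries against 3 brain libraries at E12, a 2-sided Fisher's exact test adjusted over the 34863 regions whose number of peaks allowed p below 0.05, called 0% of them (0 regions); its smallest adjusted p was 0.113. At an unadjusted p below 0.05 it counted 340 regions higher in heart and trunk and 3587 higher in brain. Of the 636 regions of the set that could be tested, 49 (7.70%) were higher in heart and trunk at that unadjusted level, against 0.975% of all tested, and 8 were higher in brain. None of these passes the adjusted threshold. The smallest p that 8 against 3 libraries allow is 0.00606, and in simulated data this test called 0 of 200 changed regions and 4466 of 5000, so a count of 0 does not show that the regions did not differ.

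**Figure D2:**
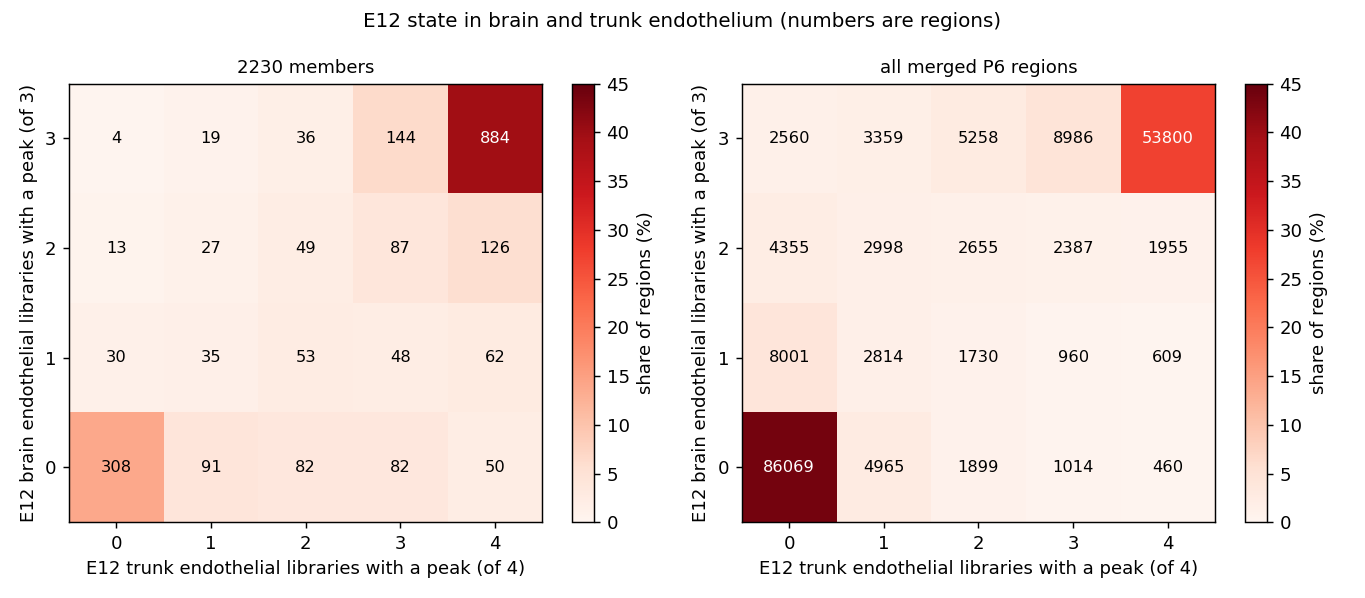
Number of regions by how many of the 4 E12 trunk endothelial libraries (horizontal) and of the 3 E12 brain endothelial libraries (vertical) held a peak, for the 2230 regions (left) and all merged P6 regions (right); colour gives the share in percent. Among the 2230 the fullest cell is the one open in all trunk and all brain libraries, with 884 regions, and among all regions the one open in none, with 86069.

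In whole E12 tissue, with 1 library each, the brain input held a peak at 12.4% of the regions and the trunk input at 16.0%, below every endothelial library of the same tissue and below the 40.6% and 31.8% of all merged regions. The heart input held one at 39.2% (42.7% of all), below 3 of the 4 heart endothelial libraries and above replicate 3 at 26.2%. Of the 1087 regions open in all 3 E12 brain endothelial libraries, 15.9% had a peak in the whole-brain input. Of the 613 regions closed in all 3, 7.18% did. The whole-brain input list held 141866 peaks, more than any E12 endothelial list. In the P6 brain inputs the same 1087 regions held a peak at 8.83%, 4.42% and 2.48%, against 10.4%, 6.04% and 2.94% of the 613 regions closed in all E12 brain endothelial libraries and 29.1%, 36.8% and 29.7% of all merged regions.

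In the adult, few of the regions were open in barrier endothelium and most were open in at least 1 peripheral organ. A peak in any of the 4 adult brain and retina libraries was held by 80 of the 2230 regions (3.59%, 95% Wilson interval 2.89% to 4.44%), against 33.7% of all merged regions and 78.5% of the 33948 also open in barrier endothelium at P6. By library the shares were 1.57% and 1.97% in brain and 1.61% and 0.359% in retina, while 18.6% to 21.3% of all merged regions had a peak there. The mean over these 4 libraries was 1.38% ± 0.704 (SD, n = 4), and 2.13% when the regions were chosen without P6 brain replicate 3. The peripheral shares were 58.4% and 66.5% in liver, 24.5% and 42.2% in kidney, 24.6% and 29.2% in heart, and 25.5% and 11.5% in lung. The liver libraries are above all others and do not overlap them. The same holds for all merged regions, which gave 17.8% and 22.3% in liver and 9.36% to 17.4% in the other 3 organs. The liver lists were also the longest of the peripheral ones, with 37022 and 47334 peaks, against 19464 to 36489. The shortest was that of the lung library at 11.5%. The part of list length in these shares was not tested. The mean peripheral share was 35.3% ± 18.9 (SD, n = 8), against 67.0% for the 33948. A peak in at least 1 peripheral and no barrier library was held by 1796 regions (80.5%, against 14.7% of all and 18.0% of the 33948). The 33948 were chosen for a P6 barrier peak. The 4276 regions open in 2 peripheral organs and in no barrier library at P6 gave 59.8%. Neural and glial markers had a peak within 5 kb of a start for 6 to 7 of 11 genes in adult brain and 7 in each adult retina endothelial library, against 0 to 2 in peripheral ones. Photoreceptor markers had one for 6 of 6 genes in each adult retina library, 1 in each brain library and 0 to 1 in peripheral ones. Other markers did not follow this split in both barrier organs. Mural markers had one for 1 to 5 of 10 genes in peripheral, 4 to 5 in brain and 3 to 4 in retina libraries. For fibroblast markers it was 1 to 3 of 9, 4 to 5 and 2, and for cardiomyocyte markers 0 to 2 of 8, 0 and 3 to 4. The part of such other nuclei in the missing peaks was not tested.

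Applied to the adult libraries, the P6 rule chose 186 of the regions (8.34%, against 0.699% of all and 3.27% of the 33948). The adult test of 8 peripheral against 4 barrier libraries was a 2-sided Fisher's exact test adjusted over 25484 regions, with libraries and not organs as units. It called 39 of 965 tested regions of the set higher in peripheral endothelium (4.04%, against 1.42% of all tested). None of the set was called higher in barrier endothelium, where it called 1379 of all regions. At an unadjusted p below 0.05 the numbers for the set were 94 (9.74%) and 0, against 4.12% and 15.7% of all tested regions. Each of the 39 is a region with a peak in all 8 peripheral and no barrier library, which gives p = 0.00202, the smallest the Fisher test allows here, and an adjusted p of 0.0296. Without adult brain replicate 2 or adult retina replicate 1 the count was 0. The smallest p that 8 against 3 libraries allow is 0.00606, so this 0 does not show that the pattern was lost. With each library left out in turn, 39 to 57 regions were open in all adult peripheral and no barrier library. The called count was also 0 when all 95332 regions with an adult peak were tested, and with libraries shuffled only within replicate number. Such shuffling allows no p as small as 0.00202. With peaks of −log10 q of at least 5 it was 14, and with equal numbers of top peaks 116.

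Regions of either E12 brain state were mostly closed in adult barrier endothelium. Of the 1087 open in all 3 E12 brain libraries, 27 (2.48%) held a peak in an adult barrier library and 887 (81.6%) in an adult peripheral one. Of the 613 closed in all E12 brain libraries, the counts were 27 (4.40%) and 540 (88.1%). Thus 860 regions, 38.6% of the set, had a peak in all E12 brain libraries and in adult peripheral endothelium and none in adult barrier endothelium, against 6.31% of all merged regions and 15.6% of the 33948. The 4276 regions open in 2 peripheral organs and in no barrier library at P6 gave 16.7%. The count of 860 shares its condition at P6 with the rule.

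Regions just inside the rule, open in exactly 3 organs, held a peak in at least 1 E12 brain library at 70.5%, in all 4 trunk libraries at 46.6%, in all 4 trunk and no brain library at 2.01% and in an adult barrier library at 3.42%. The 4276 regions just outside the rule, open in both libraries of 2 organs and in no barrier library, gave 54.2%, 28.4%, 2.29% and 3.04%.

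Whole-tissue libraries of P6 did not enter the rule. The 6 brain and retina inputs held a peak at 1.97% to 9.19% of the regions, against 29.1% to 38.6% of all merged regions, and together at 357 regions (16.0%, against 59.1% of all, 82.4% of the 33948 also open in barrier endothelium and 15.7% of the 4276 just outside the rule). The lung inputs gave 64.2%, 58.0% and 49.6%, the heart inputs 32.5% and 32.2%, the kidney inputs 49.9%, 11.2% and 11.7%, and the liver inputs 33.0% and 7.85%. All merged regions gave 40.5%, 38.6% and 35.7% in lung, 37.1% and 35.2% in heart, 38.4%, 19.9% and 20.3% in kidney, and 26.3% and 14.5% in liver. The set was thus above all merged regions in the 3 lung inputs and 1 input each of kidney and liver, and below them in the other 5. The lung inputs were the highest and overlapped only with kidney replicate 1. In a test of 10 peripheral against 6 barrier inputs (2-sided Fisher's exact test over 92627 regions), 52 of 1456 tested regions of the set were called higher in peripheral tissue (3.57%, against 1.22% of all tested), with adjusted p from 0.00454 to 0.0192. None was called higher in barrier tissue. At an unadjusted p below 0.05 the counts were 370 (25.4%) and 7, against 9.99% and 21.4% of all tested regions. Without kidney input replicate 2 or 3 the called count was 82 or 79. It was 215 when only regions whose margin allows p below 0.01 were tested. In sets chosen anew it was 13 with peaks of −log10 q of at least 5 and 34 with equal numbers of top peaks. In such bulk samples, fewer endothelial nuclei and less open chromatin per nucleus cannot be told apart.

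**Figure D3:**
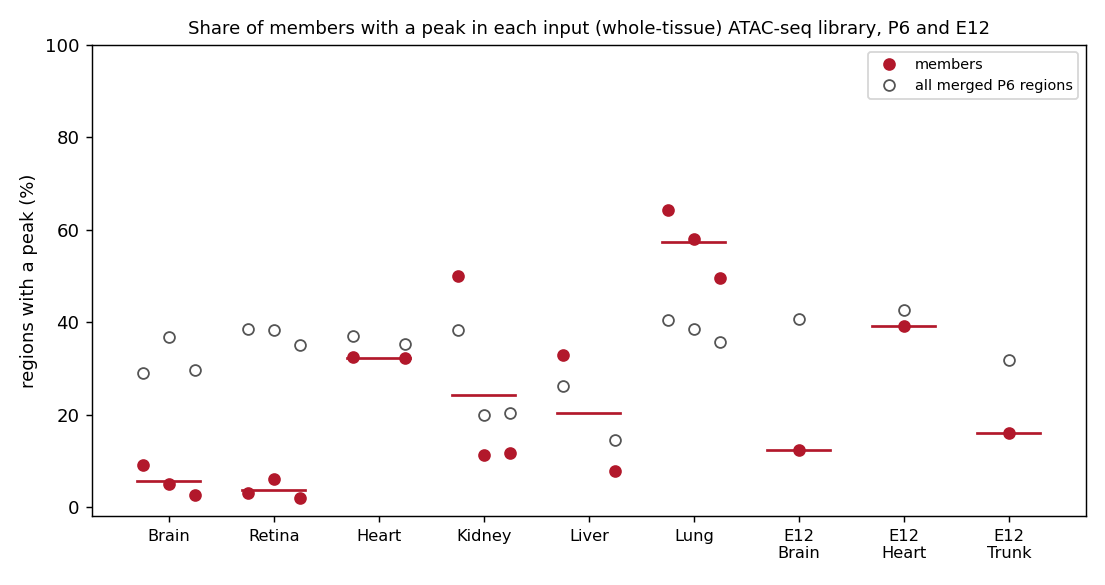
Share of regions with a peak in each input library of P6 (6 organs) and E12 (3 tissues), in percent; filled points are the 2230 regions, open points all merged P6 regions, each point 1 library and each bar the mean of the filled points. The brain and retina inputs of P6 sit between 1.97% and 9.19% and the lung inputs between 49.6% and 64.2%.

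The nearest protein-coding genes numbered 1741, or 7.96% of 21883, and 1382 of them had a single region. The gene nearest to a region need not be the one it acts on. The 12 genes with the most regions were Pmp2 with 7, Meis1, Diaph3 and Ptprm with 6, Aqp1, Palld, Atp2b1, Gask1b, Tns3, A1bg and Trib2 with 5, and Tcim with 4. Of the 12 genes with 4 regions, Cd36 and Gata6 among them, Tcim was taken because all 4 of its regions lay within 50 kb. These regions were 36.8% of all merged P6 regions nearest to Pmp2 and 20.0% of those nearest to Aqp1, and 4.17% to 11.6% for the other 10 genes. The order depends on the peak threshold: with peaks of −log10 q of at least 5 the counts were 6 for Trib2, 4 for Gask1b, 3 for Pmp2 and A1bg, 2 for Meis1, Aqp1 and Palld, 1 for Diaph3, Ptprm and Tcim, and 0 for Atp2b1 and Tns3. With equal numbers of top peaks per library they were 4 for Gask1b and Trib2 and 1 to 3 for the others.

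Fatty acid handling genes were the list with the largest share of genes nearest to a region, 7 of 12, and 14 of the 172 merged regions around them were in the set (8.14%, against 1.13% of all merged regions). The lists were drawn up with earlier results of these data known, and no test was made of them. Cd36 had 4 regions, Fabp4 and Pparg had 3 each, and Fabp5, Tcf15, Slc27a3 and Angptl4 had 1 each. Of the 14 regions, 12 held a peak in an adult peripheral library and 1 in an adult barrier library.

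Cd36 encodes the fatty acid translocase of muscle and fat capillaries. Its region at chr5:17898823-17899559, 62927 bp from the nearest start, had fold enrichments, as the authors' peak caller gave them, of 7.41 and 6.80 in P6 heart, 8.66 and 8.74 in liver, 4.70 and 2.83 in kidney and 4.77 and 3.55 in lung. It was open in all 3 E12 brain libraries (5.32, 5.29 and 3.63), all 4 trunk and all 4 heart libraries, in 6 of 8 adult peripheral libraries and in no adult brain or retina library. The Cd36 regions at chr5:17843236-17844616 and chr5:17876628-17877320 instead had no peak in any E12 brain or trunk library and a peak in 3 of 4 E12 heart libraries. In the adult they were open in 5 and 7 of 8 peripheral libraries, both heart and both kidney libraries among them. Neighbouring regions of 1 gene thus differed in whether E12 brain endothelium held them open.

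Pparg encodes the nuclear receptor PPARγ, a regulator of lipid uptake genes. Its region at chr6:115462876-115463705 was open in all 8 P6 peripheral libraries, with fold enrichments from 4.79 in a kidney to 7.74 in a liver library. At E12 it was open in 4 of 4 trunk, 3 of 4 heart and 1 of 3 brain libraries. In the adult it was open in all 8 peripheral and no barrier library (adjusted p = 0.0296, Fisher's exact test).

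Fabp4, a fatty acid binding protein of capillary endothelium, and Pmp2, a related lipid binding protein of myelin, are neighbours on chromosome 3, and 10 regions lay nearest to the pair. None of the 10 had a peak in any adult brain or retina library, and each had one in at least 1 adult peripheral library. The region at the upper end of the Fabp4 gene span, chr3:10208296-10208889, was closed in all 3 E12 brain and 4 E12 heart libraries and open in 1 of 4 trunk libraries. At P6 it was open in both heart, kidney and liver libraries, at fold enrichments of 3.07 to 4.12, and in no lung library. In the adult it was open in both heart and both kidney libraries, 1 lung and no liver library. The region chr3:10154404-10155115, nearest to Pmp2, was open in no E12 brain or trunk library, in all 4 E12 heart libraries and in all 8 adult peripheral libraries, and chr3:10157075-10157695 was open in no E12 library and 7 of 8 adult peripheral ones. By contrast, chr3:10188142-10188612 was open in all 11 E12 libraries, in 7 of 8 P6 peripheral libraries and in 1 of 8 adult peripheral libraries. The locus thus held 1 region with a peak in every E12 library and in 1 adult library, and 1 with none at E12 and peaks in 7 of 8 adult peripheral libraries.

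**Figure D4:**
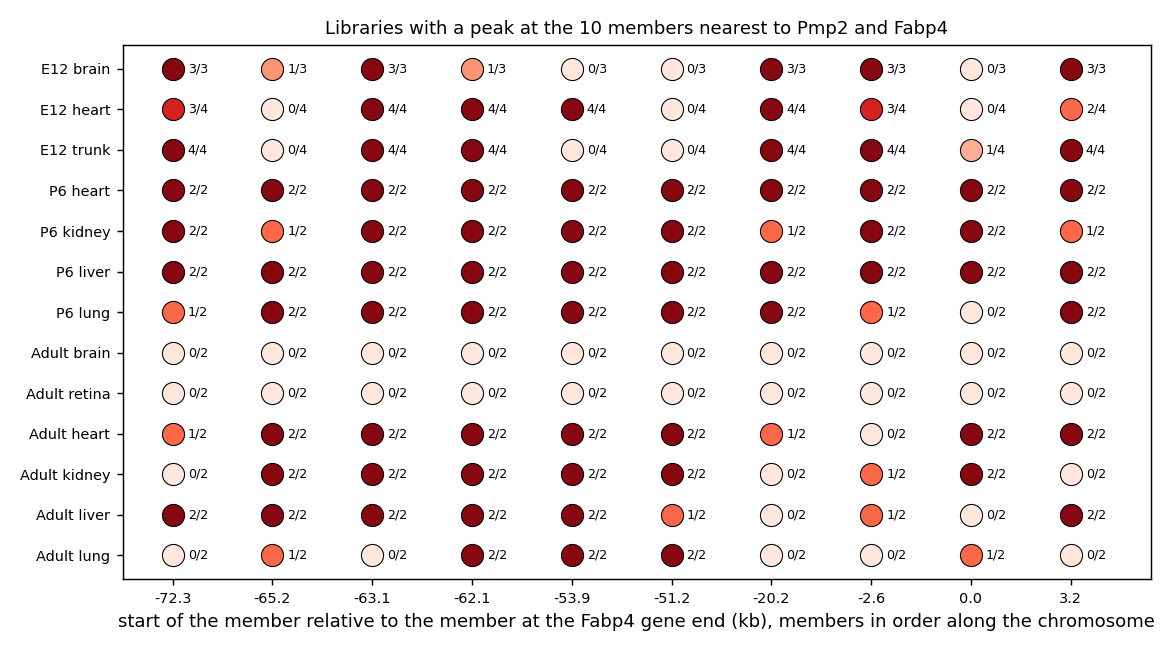
Number of libraries with a peak at each of the 10 regions nearest to Pmp2 and Fabp4 (horizontal, in chromosome order, labelled by their start in kb relative to the region at the Fabp4 gene end) in each group (vertical); darker points mark a larger share of libraries. The adult brain and retina rows are at 0 of 2 for all 10 regions, while the E12 brain row holds 3 of 3 for 5 of them.

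Fenestra and caveola genes were nearest for 5 of 11, with 8 regions (3.98% of 201 around them): 3 at Emcn, 2 at Plvap and 1 each at Cav1, Cavin1 and Cavin2. All 8 held a peak in an adult peripheral library, and none did in an adult barrier library. Plvap forms the diaphragms of fenestrae and caveolae, and its loss from brain vessels is a classic step of barrier maturation. The Plvap region at chr8:71498871-71499654 was open in all 11 E12 libraries, brain included, in all 8 P6 peripheral and in 5 of 8 adult peripheral libraries, and in no adult barrier library. The second, chr8:71497887-71498282, 134 bp from the nearer end of the gene, had no peak in E12 brain or trunk and a peak in 3 of 4 E12 heart libraries. At P6 it was a low peak, with fold enrichments of 2.35 to 3.52, and in the adult it was open in both heart, kidney and liver libraries and in no lung library. Emcn encodes the sialomucin endomucin of veins and capillaries. Its 3 regions, at 54327 to 187182 bp from the start, were open in all 3 E12 brain libraries. Cavin2, a caveola coat protein, had a region (chr1:51300170-51300916) open in all 8 trunk and heart libraries and in no brain library at E12.

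Leukocyte adhesion and venous genes were nearest for 3 of 12, with 5 regions (2.00% of 250). The 2 at Vcam1, the receptor for leukocyte integrins, were open in no E12 brain or trunk library and in 3 of 4 E12 heart libraries. The nearer of them, chr3:116095001-116096648, had fold enrichments of 3.56 to 4.32 in the P6 lists and was open in both adult heart, kidney and liver libraries and in no lung library. The Selp promoter printed above likewise had no peak in E12 brain or trunk and a peak in 3 of 4 E12 heart libraries, and none in any adult library. A second Selp region, 9394 bp away at chr1:164124658-164125204, was open in all 4 trunk and 2 of 3 brain libraries at E12. None of the 5 regions was open in all 3 E12 brain libraries, and 4 were open in none. Nr2f2, the regulator of venous identity, had 1 region, 558985 bp off.

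The sinusoidal scavenger genes Dab2, Mrc1 and Stab2 had 4 regions (2.09% of the 191 around the listed genes), all open in all 4 E12 trunk libraries, and 3 of them in all 3 brain libraries. Stab2, a hyaluronan receptor of liver sinusoids, had a region at chr10:87014438-87015076 open in all 11 E12 libraries. In the adult it was open in both liver and 1 kidney library and in no other.

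Among the peripheral endothelial transcription factors, 11 of 28 were nearest to 22 regions (2.04% of the 1081 around them). The homeobox gene Meis1 had 6 regions, all within its gene span. All 6 were open in both adult liver libraries, and 3 were open in all 3 E12 brain libraries. The widest, chr11:18963007-18963910, was open in all 11 E12 libraries and in both adult heart, liver and lung libraries, and in no adult kidney library. Its relative Meis2 had a region at chr2:116049609-116050208 open in all 11 E12 and all 8 adult peripheral libraries and in no barrier library. That region had fold enrichments of 3.77 to 4.05 in E12 brain lists and 4.02 to 5.19 in trunk lists; each fold is the list's own value and says nothing of a change between lists. Gata6, an endothelial and cardiac zinc finger factor, had 4 regions, 1 of them open in all E12 brain libraries and 1 open in an adult peripheral organ, the liver.

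Hox cluster genes, which record position along the body axis, were nearest for 7 of 39, and 9 of the 107 merged regions around them were in the set (8.41%). All 9 held a peak in an adult peripheral library and none in a barrier library. Hoxa2 had 2: chr6:52172504-52173001 was open in all 3 E12 brain, all 4 trunk and all 8 adult peripheral libraries, and chr6:52170553-52171230 in 2 of 3, 4 of 4 and 7 of 8. At Hoxb4 a wide region beside the gene's start (chr11:96318448-96320173, 181 bp away) was open in all 3 E12 brain libraries. Its neighbour chr11:96314523-96315610 was open in 1 of 3 brain and 2 of 4 trunk libraries at E12 and in 7 of 8 adult peripheral libraries. Hoxb1 and Hoxa4 regions, 1 each, had no peak in E12 brain.

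Notch, BMP and TGF-β genes were nearest for 11 of 24, with 15 regions (2.05% of 730), 11 of them open in all 3 E12 brain libraries and 1 in none. Bmp4, a secreted BMP ligand, had 3, at 149771 to 245562 bp; the farthest, chr14:46143925-46145107, was open in all 11 E12 and all 8 adult peripheral libraries. Jag1, a Notch ligand of arteries, had 2, both open in all 3 E12 brain libraries and with at most 1 of 8 adult peripheral libraries. Acvrl1, the BMP9 receptor of endothelium, had 1, open in 7 of 8 E12 trunk and heart libraries, in all 3 brain libraries and in 5 of 8 adult peripheral ones. The paracrine signals were nearest for 7 of 17, with 8 regions (1.86% of 430). Dkk2, an inhibitor of Wnt signalling, had 2, of which chr3:132227571-132228040 was open in all 11 E12 libraries and chr3:132096178-132096747 in no brain or trunk library. Hgf, the hepatocyte growth factor released by liver endothelium, had 1, open in both adult liver libraries, 1 lung library and no E12 brain library.

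General endothelial genes were nearest for 10 of 20, with 16 regions (2.64% of 607). Kdr, the main VEGF receptor, had 3. The region nearest to its start, chr5:75955962-75956517, was open in 1 of 3 E12 brain libraries and both adult heart and kidney libraries. Flt1, the decoy VEGF receptor, had 2, and chr5:147579685-147580579 was open in no E12 library, in 5 of 8 adult peripheral libraries and in 1 of 2 adult retina libraries. Ets1, an ETS factor of endothelium, had a region at chr9:33100979-33101852 open in all 11 E12 and all 8 adult peripheral libraries. The Egfl7 promoter printed above had no peak in any E12 library and a peak in 4 of 8 adult peripheral libraries.

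Of the barrier genes, 5 of 29 (17.2%, against 7.96% of all genes) were nearest to a region, and 6 of the 532 merged regions around them were in the set (1.13%, the same share as for all merged regions). Tspan12, a co-receptor of the Norrin and Frizzled4 signal, had 2, both open in all 3 E12 brain libraries. The Cldn5 region, 24441 bp from the start of this tight junction gene, was open in no E12 library and in 1 adult lung library. Within the span of Tjp1, which encodes the junction scaffold ZO-1, lay chr7:65417107-65417835, with P6 fold enrichments of 2.22 to 3.91. No other region of the set was open in all 4 E12 trunk and all 8 adult peripheral libraries and in no E12 brain or adult barrier library. The Tjp1 region also had a peak in 3 of 6 P6 brain and retina inputs and 9 of 10 peripheral inputs. This condition is stricter than the P6 rule, which asks for 3 of 4 organs. The region chr1:40171810-40172390, nearest to Il1r1, had the same E12 state. In the adult it was open in both heart, kidney and liver libraries and in no lung, brain or retina library.

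**Figure D5:**
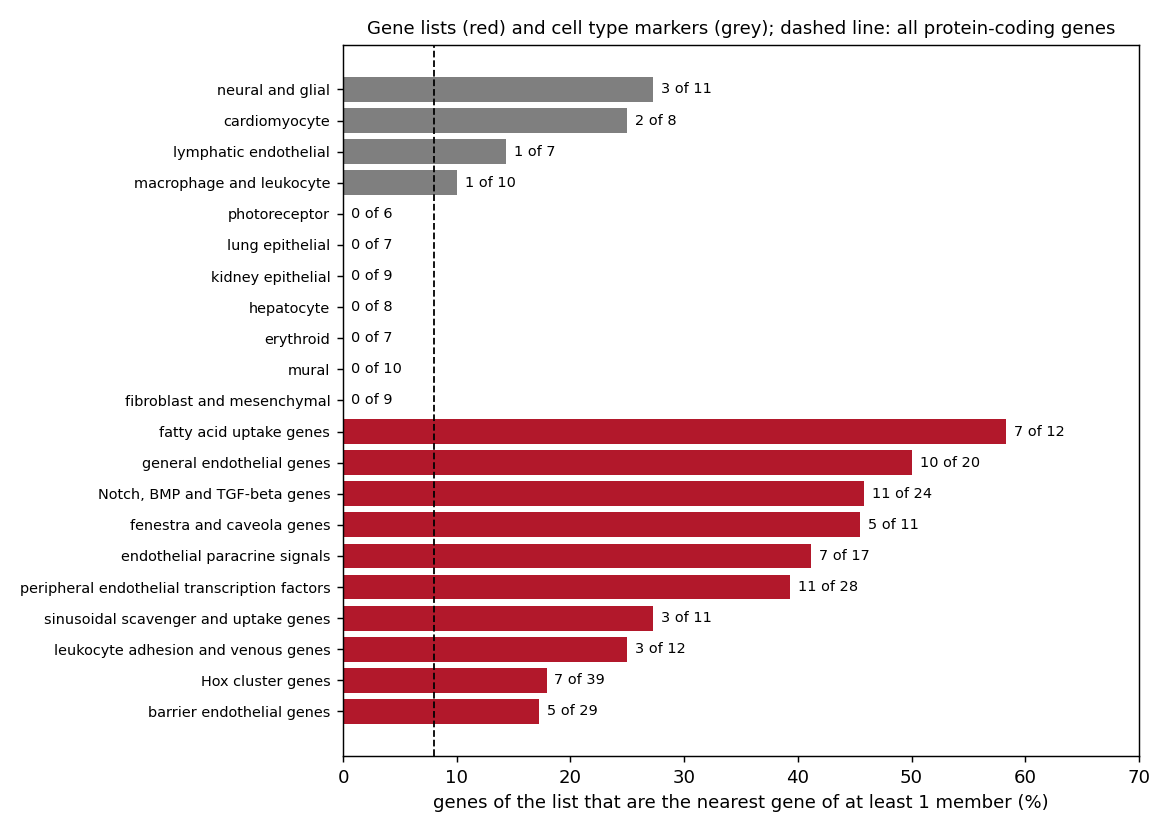
Share of each gene list (red) and of each set of cell type markers (grey) that is the nearest gene of at least 1 of the 2230 regions, in percent, with the number of genes beside each bar; the dashed line is the share of all protein-coding genes, 7.96%. Fatty acid genes are highest with 7 of 12, and 7 of the 11 marker sets are at 0.

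Of the marker genes of other cells, 7 of 92 (7.61%) were nearest to a region, close to the 7.96% of all protein-coding genes. Fibroblast, mural, erythroid, hepatocyte, kidney epithelial, lung epithelial and photoreceptor markers had 0 regions. Neural markers had 4 regions at 3 of 11 genes (27.3%, Neurod1, Rbfox3 and Sox2), cardiomyocyte markers 2 at 2 of 8 (25.0%), lymphatic markers 1, at Flt4, and leukocyte markers 1, at Mrc1. As shares of the merged regions around the listed genes these were 1.79% of 224, 1.69% of 118, 0.806% of 124 and 0.870% of 115, against 1.13% of all merged regions.

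Among the genes with the most regions, Aqp1, the water channel of most non-barrier capillaries, had 5 regions at 4619 to 25666 bp before its start, and none was open in an adult barrier library. Of them chr6:55310164-55310633 was open in all 11 E12 libraries, while chr6:55327238-55328008 was open in no brain or trunk library at E12 and in both adult liver and both adult lung libraries. Palld, an actin-binding scaffold, had 5, and all were open in all 3 E12 brain libraries. Ptprm, a junctional receptor phosphatase, had 6: 5 were open in all 3 E12 brain libraries and 1 held a peak in an adult brain library. Diaph3, a formin, had 6 and Tns3, a focal adhesion protein, had 5, with 3 in each gene open in all E12 brain libraries. Trib2, a pseudokinase, had 5, of which 3 were closed in all E12 brain libraries. Atp2b1, a calcium pump, had 5, of which 3 were open in all E12 brain libraries and 1 held a peak in an adult retina library. Gask1b and A1bg had 5 each, with 2 open in all E12 brain libraries, and Tcim had 4, with 1. No region of Diaph3, Ptprm, A1bg or Trib2 lay within 50 kb of a start of the gene.

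The strongest peaks among the 1087 regions open in all E12 brain libraries lay near Ehd3, Cntnap2, Mphosph8, Rit2 and Egfem1. The region 33297 bp from Ehd3, which encodes an endocytic protein of glomerular endothelium (chr17:73770851-73771544), had fold enrichments of 8.83 and 5.71 in P6 heart, 8.61 and 8.29 in kidney, 8.47 and 9.19 in liver, and 10.1 and 10.4 in lung. Its E12 brain values were 5.69, 7.03 and 6.63. In the adult it was open in both kidney and both liver libraries and in no heart, lung, brain or retina library. It also held a peak in 4 of 6 P6 brain and retina inputs. The Egfem1 region, chr3:29539039-29539777, had P6 values of 5.95 to 9.26 and E12 brain values of 3.94, 5.73 and 4.48, and was open in all 8 adult peripheral and no barrier library. A single region, 2005 bp from Clasp2 (chr9:113738900-113739468), was open in all 4 adult barrier libraries. It was also open in all 3 E12 brain libraries and in 5 of 8 adult peripheral libraries.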

How the data were processed

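Peak lists of 66 ATAC-seq libraries (37 endothelial, 29 input) were used; RNA-seq and single-cell files were not used. Per the file headers, the authors called broad peaks on each library with MACS 2.1.2, with no control, a shift of -100, an extension of 200 and q limits of 0.05 and 0.1. The deposited lists give each peak's pileup signal, the fold enrichment ratio, and the −log10 p-value and −log10 q-value. The submitters' processing notes name Bowtie2, SAMtools 1.13, Picard and mm10. Libraries had 10.1 to 59.1 M (mega) tags after filtering.

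Peaks were merged where they overlapped and regions marked by any overlap. Fisher's exact tests (SciPy) ran over all merged P6 regions whose margin allowed p below 0.05, with Benjamini-Hochberg adjustment, and were tested on simulated data: of 200 changed regions none was called in any of the 3 tests, and of 5000, 4412 (adult), 4466 (E12) and 4939 (inputs) were. Fold values only rank peaks within a list. Genes are RefSeq protein-coding genes. Named were the 12 genes with the most regions, up to 4 per list, and regions ranked by the median percentile of fold over the 8 peripheral P6 lists. The members and lists were chosen with earlier results of these data known.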

Additional observations from a re-analysis of the deposited data

Results flagged for a closer look

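The share of the 2230 regions with a peak in E12 heart replicate 3 was 26.2%, far below the other 3 heart libraries at 73.1% to 79.0%. The gap was 0.888 of the group's range, above the limit of 0.829 for 4 libraries, a test that chance passes in about 5 in 100 groups. That library had 10.1 M tags and held a peak at 15.7% of all merged regions, against 41.9% to 45.6% in the other 3.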

How the results depend on the processing

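Main values were 2230 regions, 1741 nearest genes, 39 adult calls (the same 39 counted as open in all adult peripheral and no barrier library), 52 input calls, 50 regions open in all E12 trunk and no brain library, 61.2% mean E12 brain share and 1.38% mean adult barrier share. The E12 call count was 0 under all 35 alternatives run, which says nothing about stability, since in simulated data the test called none of 200 changed regions. The mean E12 trunk share ran from 59.3% to 77.7% under 27 alternatives, and the mean adult peripheral share from 24.5% to 48.6% under 31. These moves were less than 1 SD between libraries, which is wide here, at 11.9 and 18.9 points. Same-numbered libraries correlated little: none of 30 adult pairs (-0.129 to 0.0723), none of 10 at E12 (-0.128 to 0.0708) and 2 of 30 input pairs (-0.200 to 0.255) correlated above 0.1. Adult pairs with other numbers gave the mirror image, -0.0723 to 0.129. These values cannot show whether same-numbered libraries shared an animal or a batch. With the replicate block, calls numbered 0 in the adult, 0 at E12 and 78 in the inputs. Adult calls were also 0 when all regions with a peak were tested, and input calls 215 when only margins allowing p below 0.01 were. With regions chosen anew from peaks of −log10 q of at least 5, adult calls were 14, input calls 13 and the E12 trunk-only count 11. With equal numbers of top peaks, which also chose the regions anew, they were 116, 34 and 88, and the E12 brain share was 53.4%. Here each list was cut to the shortest of the same age and kind, for endothelium 39096 peaks at E12 and 27160 at P6. Peak numbers were thus equal within an age and not between ages. With all 4 organs required, 591 regions, 536 genes, 23 input calls and 17 E12 trunk-only regions were left. With 1 library per organ enough, these were 5497, 3480, 92 and 94. Leaving out each library in turn gave 0 to 57 adult calls, 39 to 57 regions open in all adult peripheral and no barrier library, 52 to 82 input calls, 50 to 117 E12 trunk-only regions and an adult barrier share of 1.18% to 2.13%; the libraries that moved these counts are named with the results. Without P6 brain libraries 1 and 2 together, that share was 2.19%. In alternatives added after seeing the data, requiring no peak in brain endothelium alone gave 3883 regions, an E12 brain share of 71.7% and an adult barrier share of 3.53%; requiring none in retina alone gave 3415 regions and an adult barrier share of 6.64%. The causes were not tested. Depth limits the absence of a peak, which shows only that none was called in that library.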
